A study of Mus musculus with 14 samples.

Results

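The RNAs that still carried label after 8 h of chase were compared between Mettl3-KO and WT mouse embryonic stem cells. The measure was each gene's labelled share, the count of T>C conversions divided by the total count of the same gene in the same library, in percent. Genes were kept where the total count, summed over the 2 libraries of a genotype at 8 h, was at least 200 in each genotype. This left 8750 of 36335 genes, in 4 of the 14 libraries of the series, and a further 363 genes reached 200 counts in WT only and 1452 in Mettl3-KO only. Both groups were E14 embryonic stem cells, an established mouse line, grown on gelatin in FBS/LIF medium for 2 weeks with INK128 at 200 nM, which blocks the kinase mTOR and puts these cells into a paused state. All of them received 100 µM S4U, a thiolated uridine built into new RNA, for 12 h and were then returned to medium without it. The 2 WT libraries at 8 h carried intact Mettl3 and the 2 Mettl3-KO libraries lacked it. The labels name no clone. The source field reads E15 and E16 for the Mettl3-KO libraries at 8 h, while the cell line field reads E14 for all. They also do not say that replicates were grown separately, so the p-values reflect the spread among these libraries, which may be technical only. No library without S4U was analysed here, so the share a gene shows without label is not known.

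METTL3 is the catalytic subunit of the complex that writes N6-methyladenosine (m6A) on mRNA, and reader proteins of this mark are known to recruit deadenylases and shorten the life of many marked transcripts. In a pulse-chase of this kind (SLAM-seq), S4U treated with iodoacetamide is read as C in place of T, so the labelled share of a gene falls as old RNA is degraded and as new, unlabelled RNA replaces it. Messages for ribosomal proteins and for the respiratory chain are known as long-lived, and those for transcription factors and growth-response genes as short-lived.

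The 4 libraries held total counts of 14557446 and 6108102 in WT replicates 1 and 2 and of 11136381 and 26654217 in Mettl3-KO replicates 1 and 2. Mettl3 itself stood at 31.6 and 24.7 CPM (total counts scaled to the library's depth) in the WT libraries and at 1.257 and 1.201 in the Mettl3-KO libraries, so the labels and the targeted gene went the same way. Counts from embryonic stem cell markers summed to 4479 and 4934 CPM in WT and to 3548 and 3443 in Mettl3-KO. Primitive endoderm markers summed to 108 to 142 CPM in WT and to 14.6 to 15.4 in Mettl3-KO, and neural markers to 94.7 to 108 in WT and to 615 to 646 in Mettl3-KO. Trophoblast markers, of which Elf5 was at or near 0, summed to 41.4 and 39.1 in WT and to 87.6 and 91.8 in Mettl3-KO, and fibroblast markers to 15.7 and 24.9 and to 9.07 and 9.004. All 5 marker sums were thus split by genotype. The part of these marker differences in the results that follow was not tested. In bulk samples, fewer cells of a type and less RNA per cell cannot be told apart.

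Little label was left in either genotype. Over all genes the labelled share of the library was 4.52% and 3.72% in WT and 4.90% and 4.97% in Mettl3-KO. Both Mettl3-KO libraries lay above both WT libraries. The means were 4.12% ± 0.57 (SD, n = 2) in WT and 4.93% ± 0.05 (SD, n = 2) in Mettl3-KO, a difference of 0.816 percentage points (two-sided exact permutation p = 0.333, the smallest that the 6 ways of assigning 2 against 2 libraries allow). Per gene the median share was 2.44% and 1.73% in the WT libraries and 2.47% and 2.49% in the Mettl3-KO libraries. WT replicate 2, with the lowest total count, stood below the other libraries, and 1688 genes in it had no conversion count. For comparison, the median gene had a share of 45.8% (WT) and 30.8% (Mettl3-KO) at the start of the chase, and of 19.6% and 18.9% at 3 h. At 8 h the median gene thus kept 5.23% of its own 0 h share in WT and 7.87% in Mettl3-KO. WT had 1 library at 0 h and 1 deep library at 3 h, so values of WT at those times have no replicate check.

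Genes with label at 8 h overlapped between the genotypes, and the overlap is read here against the size of each set. A share of 1% or more was found for 7167 genes in WT and 7770 in Mettl3-KO, and 6595 genes were in both sets, 92.0% of the WT set and 84.9% of the Mettl3-KO set. Of all genes 88.8% were in the Mettl3-KO set, so this overlap is near the background. At 5% or more there were 1300 and 1799 genes with 738 in both, 56.8% of the WT set and 41.0% of the Mettl3-KO set, where the Mettl3-KO set held 20.6% of all genes. At 20% or more there were 50 and 71 genes with 24 in both, 48.0% and 33.8%, where the Mettl3-KO set held 0.811% of all genes. Of the 875 genes with the highest share in each genotype, 10% of all, 385 were in both, 44.0% of each. Across the 8750 genes, which share their libraries and are not independent, Spearman's rank correlation of the share was 0.367 between the WT replicates, 0.679 between the Mettl3-KO replicates and 0.311 to 0.404 between single libraries of different genotypes. The WT replicates were thus no more alike than libraries of different genotypes. The order of genes at 0 h carried little into 8 h, with a rank correlation of 0.189 in WT and 0.140 in Mettl3-KO.

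**Figure D1:**
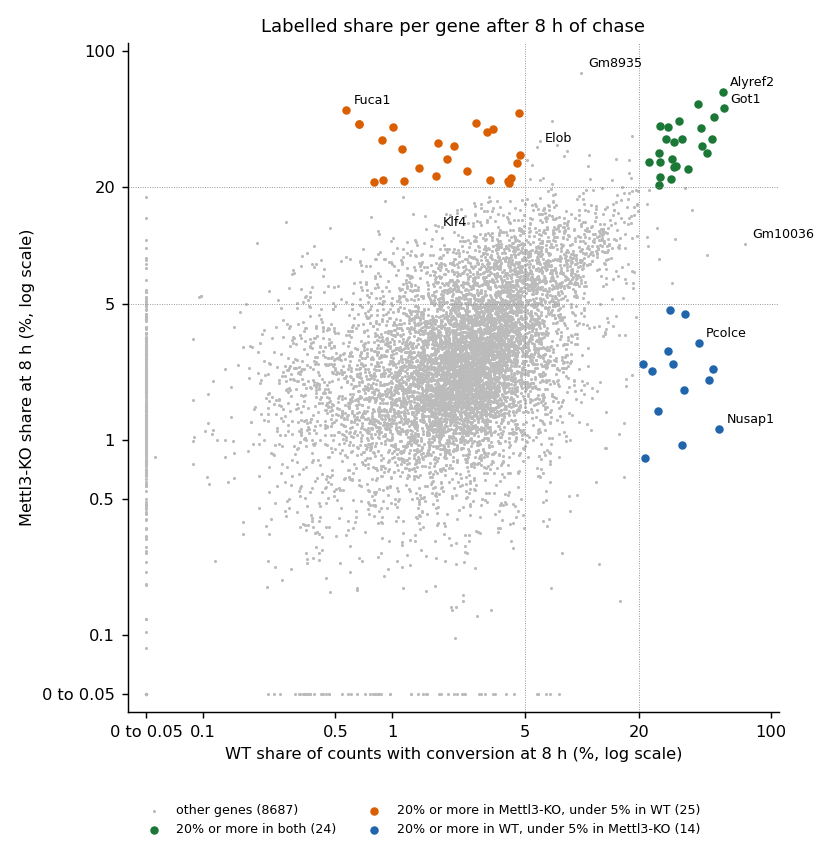
Each point is 1 of the 8750 genes, with its share of counts with conversion at 8 h in WT (x axis, %, log scale) and in Mettl3-KO (y axis, %, log scale), replicates summed and values under 0.05% drawn at 0.05%. Dotted lines mark 5% and 20%. The 24 genes at 20% or more in both genotypes lie at the upper right, the 25 high in Mettl3-KO only at the upper left and the 14 high in WT only at the lower right, away from the bulk of genes under 5%.

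The 3 kinds of highly labelled RNA below were set apart by thresholds on the summed share. Genes at 20% or more in both genotypes numbered 24 of 8750 (0.274%). Genes at 20% or more in Mettl3-KO and under 5% in WT numbered 25 (0.286%), and genes at 20% or more in WT and under 5% in Mettl3-KO numbered 14 (0.16%). A further 34 genes were at 20% or more in 1 genotype and between 5% and 20% in the other, 22 of them high in Mettl3-KO and 12 high in WT. The thresholds cut a continuous range. Snapc2 with 22.01% and Pfn1 with 19.93% lay just inside and just outside the high set of WT, and Gsto1 with 20.69% and Sem1 with 19.77% did so in Mettl3-KO. Because the 8 h shares chose these genes, their 8 h values are a description. The conditions held in each library on its own for 16, 12 and 9 genes of the 3 sets. Left out in turn, WT replicate 1 took the first set from 24 to 8 genes and the WT set from 14 to 8, and Mettl3-KO replicate 2 took the WT set from 14 to 9. With 1000 or more total counts in each genotype, 10, 4 and 6 genes were in the 3 sets.

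Got1, the cytosolic aspartate aminotransferase, was among the RNAs at 20% or more in both genotypes. It had the most counts behind it of the shared genes named here, 4530 in WT and 8451 in Mettl3-KO. Its share was 55.0% and 58.5% in WT and 50.9% and 50.8% in Mettl3-KO at 8 h, after 78.9% in WT and 78.3% and 73.2% in Mettl3-KO at 0 h. Most of its 0 h share was thus still there in all 4 libraries. Alyref2, a relative of the mRNA export factor ALYREF, was at 51.9% and 65.2% in WT and at 55.0% and 65.0% in Mettl3-KO. Chd3, a chromatin remodeller of the NuRD complex, was at 56.0% and 40.6% in WT and at 46.0% and 45.6% in Mettl3-KO. Both had genotypes that overlapped. Pop1, a protein of the RNase P and RNase MRP complexes, was at 55.7% and 39.6% in WT and at 36.2% and 34.9% in Mettl3-KO. Perp, a membrane protein known as a p53 target, was at 42.6% and 38.4% in WT and at 47.9% and 55.8% in Mettl3-KO. Vcl, which encodes the adhesion protein vinculin, was at 29.1% and 27.5% in WT and at 37.7% and 41.8% in Mettl3-KO. For Perp and Vcl both Mettl3-KO libraries were the higher ones, and for Pop1 both WT libraries were, but none of the 3 passed the test across all genes described further on. Comtd1, Ift27, a protein of intraflagellar transport, and Nfkb2, an NF-κB subunit, were also at 20% or more in each library. Smc6, of the SMC5/6 complex that guards chromosome structure, was at 41.4% and 61.1% in WT and at 32.9% and 28.5% in Mettl3-KO, and it alone of the 24 was past the test's threshold (log2 difference of -0.73, SE 0.22, edgeR adjusted p = 0.0493). Snord3a, a U3 small nucleolar RNA, entered this set through 53.5% in WT replicate 1 and had 3.3245% in WT replicate 2, with 46.7% and 42.0% in Mettl3-KO. It also stood at 2.21% in WT at 0 h, against 58.0% and 56.9% in Mettl3-KO. At 3 h it stood at 57.6% in WT and 54.3% in Mettl3-KO, in replicate 1 of each.

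The 0 h and 3 h libraries were not used to choose these genes. From 0 h to 3 h the share of the median gene fell by 1.18 on the log2 scale in WT and by 0.65 in Mettl3-KO, with the shallow libraries left out. For the 24 shared genes the medians were -0.34 in WT and -0.07 in Mettl3-KO, nearer to no change in both. Their median share at 8 h was 58.9% of that at 0 h in WT and 72.8% in Mettl3-KO.

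Among RNAs labelled at 8 h in Mettl3-KO only, Fuca1, the lysosomal alpha-fucosidase (chromosome 4, 135920726 to 135940300, mm10), had the highest share of those for which the condition held in every library. Its share was 47.7% and 50.5% in Mettl3-KO and 0.546% and 0.612% in WT. Ppm1m, a protein phosphatase, was at 35.4% and 45.0% in Mettl3-KO and at 3.83% and 0% in WT. Ndc80, part of the kinetochore complex that binds spindle microtubules, was at 39.4% and 41.4% in Mettl3-KO and at 1.31% and 0.348% in WT. The gap between the genotypes in these genes was set by their choice. Vamp3, a vesicle SNARE, was at 34.4% and 39.98% in Mettl3-KO and at 3.90% and 1.94% in WT. Nme6, a nucleoside diphosphate kinase family member, was at 37.6% and 33.7% in Mettl3-KO and at 0.595% and 1.28% in WT. Pdpk1, the kinase PDK1 that phosphorylates AKT, was at 22.2% and 29.9% in Mettl3-KO and at 2.20% and 0.962% in WT, with 2847 and 4767 total counts in WT and Mettl3-KO. Net1, a RhoA exchange factor, Flot1, a membrane raft protein, Tstd2 and Aoah, an enzyme that deacylates lipopolysaccharide, had the same pattern, with 21.97% to 35.5% in the Mettl3-KO libraries and 0% to 3.39% in the WT libraries. Not all of the 25 genes were as even. Gm45837 and Pde2a hold identical counts and are 1 signal, at 0% and 55.8% in the 2 Mettl3-KO libraries, and Arv1 was at 7.17% and 29.2%.

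At 0 h 23 of the 25 genes were labelled in both genotypes, with at least 33.2% in WT and 21.7% in Mettl3-KO. The exceptions were Gm45837 and Pde2a, with 2.26% in WT and 4.58% and 3.80% in Mettl3-KO, whose Mettl3-KO share at 8 h was 996% of that at 0 h. Fuca1 was at 34.0% in WT and at 46.8% and 63.2% in Mettl3-KO, Ndc80 at 50.5% and at 62.2% and 58.6%, and Pdpk1 at 41.7% and at 44.7% and 39.5%. At 3 h, in libraries that the choice did not use, the Mettl3-KO share was the higher one for 22 of the 25 genes, as for 41.3% of all genes. Each genotype had 1 deep library at 3 h, so this has no replicate check. Fuca1 then stood at 14% in WT and 51.5% in Mettl3-KO, Ndc80 at 22.6% and 43.1%, and Nme6 at 9.43% and 47.4%. Nqo1 (45.5% in WT and 41.7% in Mettl3-KO), Tubb2a (31.8% and 26.2%) and Nnt (28.01% and 25.7%) went the other way. Over the 25 genes the median change from 0 h to 3 h was -1.21 in WT, close to the -1.18 of all genes, and -0.13 in Mettl3-KO, against -0.65 for all genes. None of the 25 fell by more than 1 on the log2 scale over these 3 h in Mettl3-KO, as 2207 of all 8750 genes did. In Mettl3-KO the share fell at all in 16 of the 25, against 8380 of all 8750 genes. In WT it fell in all 25. The cause was not tested. At 8 h the median gene of the set kept 4.84% of its 0 h share in WT and 66.8% in Mettl3-KO.

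RNAs labelled at 8 h in WT only were fewer. Pcolce, an enhancer of procollagen processing (chromosome 5, 137605105 to 137611522, mm10), was at 42.1% and 40.3% in WT and at 2.79% and 3.31% in Mettl3-KO, with 5363 and 2873 total counts. Sde2, a factor of splicing and genome stability, was at 35.1% and 32.8% in WT and at 2.23% and 1.67% in Mettl3-KO. Txnl1, a thioredoxin-like protein bound to the proteasome, was at 23.4% and 23.6% in WT and at 2.04% and 2.35% in Mettl3-KO. In each of the 3 the replicates lay close together, and the gap between the genotypes was set by the choice of these genes. Dhx35, an RNA helicase, was at 41.5% and 59.2% in WT and at 2.84% and 1.72% in Mettl3-KO. Nusap1, a spindle-associated protein, was at 64.2% and 28.6% in WT and at 0.348% and 1.44% in Mettl3-KO. Wdr76, Tmem38a, Bloc1s6 and Gm56450 were also at 20% or more in both WT libraries and under 5% in both Mettl3-KO libraries. At the start of the chase these genes already had a lower share in the Mettl3-KO libraries, as most genes did. At 0 h Pcolce had 59.7% in WT and 17.0% and 18.4% in Mettl3-KO, Nusap1 51.7% and 11.1% and 25.04%, and Sde2 66.7% and 40.5% and 40.1%. Over the 14 genes the median share at 0 h was 58.2% in WT and 28.4% in Mettl3-KO, against 45.8% and 30.8% for all genes. The median change from 0 h to 3 h was -0.50 in WT and -0.76 in Mettl3-KO, and at 8 h the median gene kept 51.9% of its 0 h share in WT and 6.32% in Mettl3-KO.

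**Figure D2:**
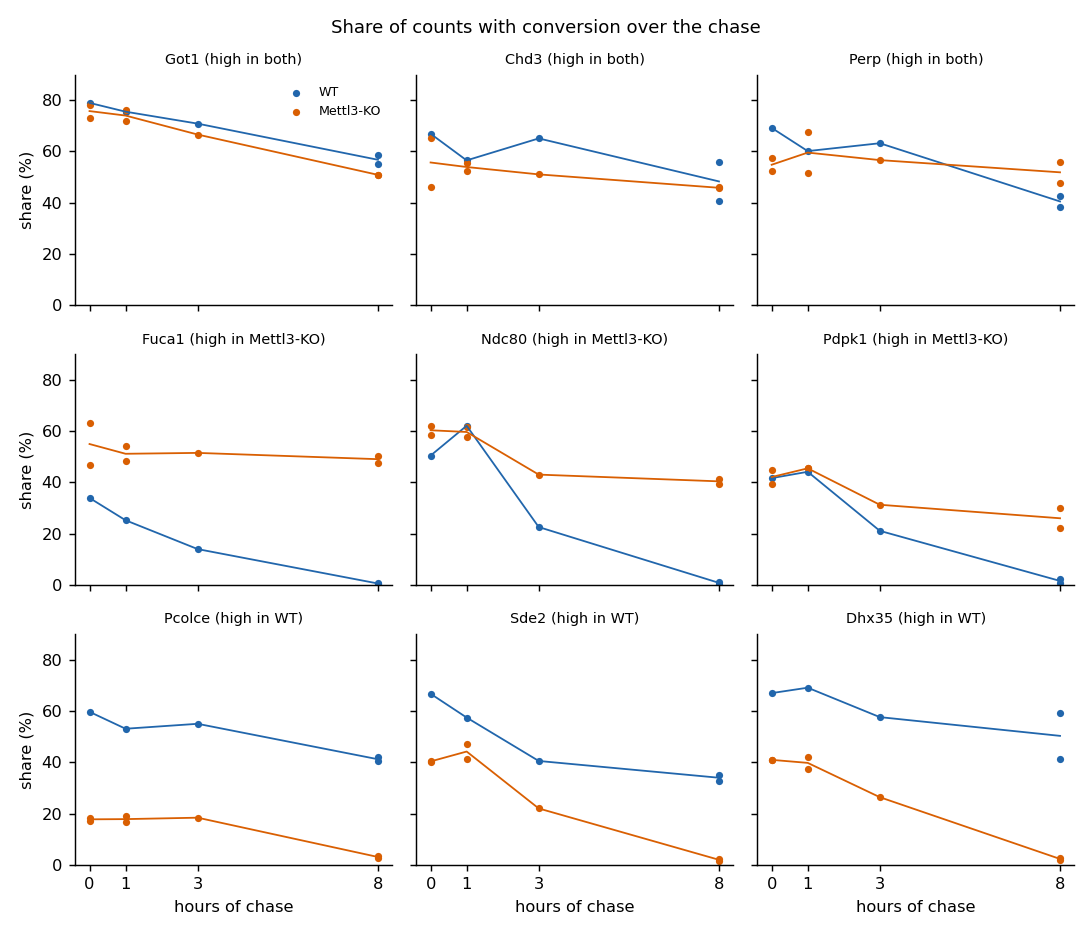
Share of counts with conversion (y axis, %) over hours of chase (x axis) for 3 genes of each kind, with 1 point per library, WT in blue and Mettl3-KO in orange, lines through the means and the 2 shallow libraries left out. Got1, Chd3 and Perp stayed above 38% in all 8 h libraries, Fuca1, Ndc80 and Pdpk1 ended at 2.20% or less in WT, and Pcolce, Sde2 and Dhx35 ended at 3.31% or less in Mettl3-KO.

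Several of these genes lie near one another. Positions on mm10 were found for 23 of the 24 shared genes, 23 of the 25 Mettl3-KO genes and 13 of the 14 WT genes. Of the Mettl3-KO genes 6 lie on chromosome 4 (26.1%, against 6.62% of all 8579 genes with a position). Ppm1m, Apeh and Nme6 lie on chromosome 9 between 106194953 and 109842974. Of the WT genes 4 lie on chromosome 2 (30.8%, against 7.91%), with Nusap1, Wdr76 and Bloc1s6 between 119618298 and 122749487, and Pcolce and Agfg2 lie together on chromosome 5. Counting is not stated to use strand, so reads of close or overlapping genes may not be told apart. The median levels of the genes around them were near those of all genes. The 384 other genes within 1 Mb of a gene of the Mettl3-KO set had median shares of 2.29% in WT and 2.76% in Mettl3-KO, and the 183 within 1 Mb of the WT set had 2.84% and 2.55%, against 2.37% and 2.47% over all genes. In the test described below, 8.07% of the 384 were higher in Mettl3-KO and 0.521% lower, with a median log2 difference of 0.35 against 0.17 over all genes. Of the 183, 6.56% were higher and 3.28% lower (median 0.07). Of 325 genes within 1 Mb of the shared set, 4.0% were higher and 0.615% lower. Over all genes 4.41% were higher and 0.994% lower. Around the WT set calls in both directions were thus more frequent than over all genes. Around the Mettl3-KO set only the higher calls were.

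The authors' deposited table of half-lives covers 5876 of the 8750 genes. It holds 0 of the 24 shared genes, 0 of the 25 Mettl3-KO genes and 2 of the 14 WT genes, so its half-lives say nothing on most of these RNAs.

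Whether a gene's share differed between the genotypes was tested over all 8750 genes with edgeR's quasi-likelihood test of conversion counts, with the gene's own total count as offset. The share was higher in Mettl3-KO for 386 genes (4.41%) and lower for 87 (0.994%) at a Benjamini-Hochberg adjusted p under 0.05. The median log2 difference over all genes was 0.17, and 56.6% of genes lay above 0. This median depends on scaling. With the library's own labelled share taken out it was -0.06, and the counts became 328 higher and 192 lower, of which 318 and 86 were among the first calls. With the TMM-scaled library total as offset, which tests labelled RNA per library, they were 699 higher and 197 lower. DESeq2 with the same offsets called 313 and 66, and limma on log2 shares called 6 and 9. Without WT replicate 1 the counts were 1182 and 362 and the median 0.67, without WT replicate 2 they were 884 and 406, without Mettl3-KO replicate 1 they were 125 and 29, and without Mettl3-KO replicate 2 they were 93 and 24. The called genes were well covered, with 2522 and 6369 total counts in the median higher gene in WT and Mettl3-KO, against 933.5 and 1687 over all genes.

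Of the 8 genes with the smallest p that were higher in Mettl3-KO, 6 lay outside the 3 sets. Elob, which encodes elongin B of the elongin and VHL complexes, was at 5.90% and 5.65% in WT and at 27.9% and 33.8% in Mettl3-KO (log2 difference of 2.42, SE 0.15, edgeR adjusted p = 1.26e-12). Utf1, a chromatin-bound factor of undifferentiated embryonic stem cells, was at 2.78% and 2.61% in WT and at 14.2% and 14.3% in Mettl3-KO (2.40, SE 0.16, edgeR adjusted p = 1.66e-12). Klf4, a pluripotency transcription factor, was at 1.77% and 1.48% in WT and at 13.7% and 10.99% in Mettl3-KO (2.91, SE 0.21, edgeR adjusted p = 1.01e-11). The 3 genes were chosen by p from these same libraries, so close replicates and a gap between genotypes follow from the choice. Both Mettl3-KO libraries were above both WT libraries in 30.6% of all genes. Apoe, the lipid carrier apolipoprotein E, was at 4.30% and 3.13% in WT and at 14.7% and 14.3% in Mettl3-KO. Ncl, the nucleolar protein nucleolin, was at 3.83% and 2.95% in WT and at 9.13% and 9.23% in Mettl3-KO. Rps4l, a relative of the ribosomal protein gene Rps4x with which it may share reads, was at 1.93% and 1.74% in WT and at 10.1% and 10.0% in Mettl3-KO.

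Genes that were lower in Mettl3-KO included a pseudogene with a very high share in WT. Gm10036 was at 72.6% and 73.6% in WT and at 10.3% and 10.2% in Mettl3-KO (log2 difference of -2.84, SE 0.15, edgeR adjusted p = 1.52e-14), with 2133 and 61321 total counts. Its total RNA was higher in Mettl3-KO by 4.05 on the log2 scale, and per library its labelled RNA was higher by 1.25, so the direction depends on whether the share or the amount of label is read. Trip6, a LIM domain protein of focal adhesions, was at 17.1% and 17.3% in WT and at 2.12% and 1.83% in Mettl3-KO. Nme1, a nucleoside diphosphate kinase, was at 27.4% and 21.99% in WT and at 8.18% and 8.62% in Mettl3-KO. Gm6542, a pseudogene of the WT set, was at 35.9% and 33.6% in WT and at 6.88% and 3.13% in Mettl3-KO. As copies of multigene families, the pseudogenes may hold reads of their parents.

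Total RNA of the same genes was tested on its own. It was higher in Mettl3-KO for 1356 genes (15.5%) and lower for 1470 (16.8%). Of the 386 genes with a higher share, 159 also had higher total RNA and 36 lower, and of the 87 with a lower share, 17 had higher and 14 lower total RNA. Over all genes the rank correlation between the differences in share and in total RNA was 0.034, with both taken from the same libraries.

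The share was then set against that at 0 h, as the part of a gene's 0 h label kept at 8 h, in a fit over all 14 libraries. It was higher in Mettl3-KO for 402 genes (4.59%) and lower for 18 (0.206%), with a median log2 difference of 0.72. The median is above that of the 8 h share itself, and the 0 h share, in the denominator, was the lower one in Mettl3-KO. With the 2 shallow libraries left out, WT replicate 2 at 1 h and Mettl3-KO replicate 2 at 3 h, the counts were 1193 and 46. They were 1345 and 94 without WT replicate 1 at 8 h, 1026 and 75 without WT replicate 2, 171 and 9 without Mettl3-KO replicate 1, and 117 and 4 without Mettl3-KO replicate 2. With the replicate block they were 168 and 5. DESeq2 called 26 and 2, and with the TMM-scaled total there were 103 and 6. Of the 386 genes with a higher share at 8 h, 262 were also called higher here, from the same 8 h libraries.

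Messages for the respiratory chain were often among those with a higher share in Mettl3-KO. Of 71 nuclear-encoded genes of oxidative phosphorylation, edgeR called the share higher in 25 and lower in 0, where 4.41% of all genes were higher and 0.994% lower, with a median log2 difference of 0.67 against 0.17 over all genes. At an unadjusted p under 0.05 there were 38 higher and 1 lower, DESeq2 called 24 and 0, and limma called none of them. The median share of the list was 6.02% and 5.16% in the WT libraries and 9.63% and 9.78% in the Mettl3-KO libraries. All 4 medians lay above those of all genes, and 28 of the 71 genes were among the 875 highest of both genotypes. Uqcr10, a small subunit of complex III, was at 3.25% and 2.75% in WT and at 10.9% and 10.8% in Mettl3-KO (log2 difference of 1.84, SE 0.22, edgeR adjusted p = 4.91e-07). Atp5g3, a subunit of the ATP synthase ring, was at 6.55% and 5.86% in WT and at 13.1% and 14.3% in Mettl3-KO. Cox7a2, a subunit of cytochrome c oxidase, was at 7.19% and 5.16% in WT and at 13.1% and 14.1% in Mettl3-KO. These genes were named for their values in the same libraries. In each, both Mettl3-KO libraries were above both WT libraries, as for 30.6% of all genes. By complex, the calls were 13 of 34 subunits of complex I, 0 of 4 of complex II (1 at an unadjusted p under 0.05, 0 in DESeq2 and limma), 5 of 9 of complex III, 4 of 11 of cytochrome c oxidase and 3 of 12 of ATP synthase. Total RNA was higher in Mettl3-KO for 21 of the 71 genes and lower for none, against 15.5% and 16.8% of all genes.

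Mitochondrial ribosomal proteins, which build the ribosome inside mitochondria, had much lower shares and the same direction. Of 74 genes edgeR called the share higher in 18 and lower in 0, against 4.41% and 0.994% of all genes (median log2 difference of 0.96, 35 and 1 at an unadjusted p under 0.05, 11 and 0 in DESeq2, none in limma), with list medians of 2.45% and 1.79% in WT and of 4.80% and 4.39% in Mettl3-KO. Mrpl43 was at 1.42% and 1.30% in WT and at 8.28% and 8.09% in Mettl3-KO (log2 difference of 2.58, SE 0.30, edgeR adjusted p = 4.79e-07), and Mrps12 at 1.02% and 1.84% and at 7.53% and 7.49%. Both genes were named for their values in the same libraries. In each, both Mettl3-KO libraries were above both WT libraries, as for 30.6% of all genes. Of 23 genes of mitochondrial import, 5 were higher and 1 lower (median 0.78). Timm8b, a chaperone of the intermembrane space, was at 0.534% and 1.39% in WT and at 14.5% and 13.8% in Mettl3-KO (4.13, SE 0.39, edgeR adjusted p = 1.03e-08). Hspa9, the matrix HSP70 chaperone, went the other way, with 6.29% and 7.13% in WT and 2.29% and 3.22% in Mettl3-KO.

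In a list of 26 epithelial and cytoskeleton genes edgeR called 13 higher in Mettl3-KO and 0 lower, against 4.41% and 0.994% of all genes (median log2 difference of 1.104). There were 15 and 0 at an unadjusted p under 0.05, 13 and 0 in DESeq2, and none in limma. The list medians were 4.91% and 4.49% in WT and 8.79% and 8.75% in Mettl3-KO. The called genes are of the cytoskeleton or bind to it: 7 tubulins, Actb, Cfl1, Tmsb4x, Tmsb10, Myl12a and S100a10. Tubb2b, a beta-tubulin, was at 5.57% and 7.31% in WT and at 20.9% and 22.1% in Mettl3-KO (1.76, SE 0.17, edgeR adjusted p = 1.88e-08). Tmsb4x, which binds actin monomers, was at 4.21% and 6.18% in WT and at 15.98% and 15.4% in Mettl3-KO. Cfl1, the actin-severing protein cofilin, was at 2.90% and 2.40% in WT and at 6.39% and 7.11% in Mettl3-KO. Tubulins and actins are families of similar genes that may share reads. The medians of this list and of the 3 mitochondrial lists stayed above 0 with the library share taken out and with the TMM-scaled total. Without Mettl3-KO replicate 1 or 2 the higher calls were 5 and 4 for oxidative phosphorylation, 4 and 3 for mitochondrial ribosomal proteins, 2 and 2 for import and 7 and 6 for the cytoskeleton list. Without WT replicate 1 or 2 they were 41 and 38, 32 and 30, 6 and 7, and 16 and 16.

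**Figure D3:**
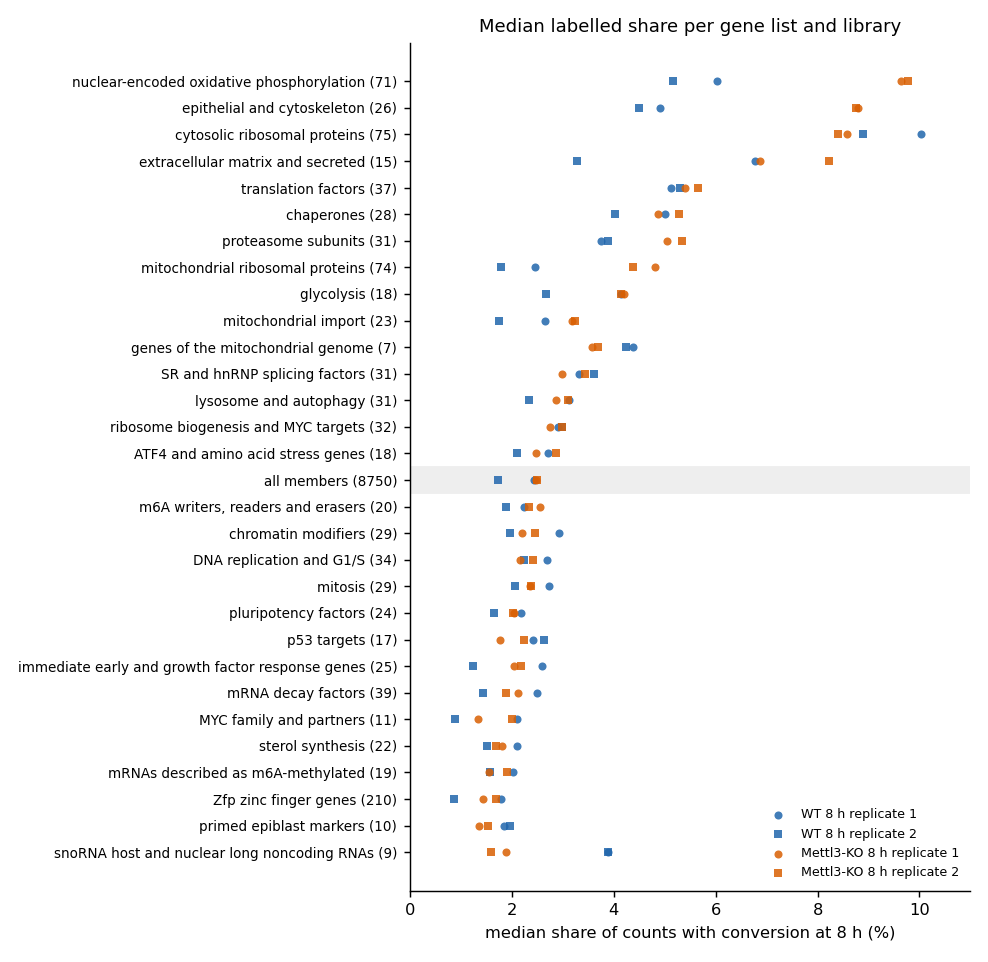
Median share of counts with conversion at 8 h (x axis, %) of each gene list, with the number of its genes in parentheses, per library (WT blue, Mettl3-KO orange, replicate 1 as circles and replicate 2 as squares), lists ordered by the Mettl3-KO median and all genes shaded. Oxidative phosphorylation and the cytoskeleton list lie at 4.49% to 6.02% in WT and at 8.75% to 9.78% in Mettl3-KO, while cytosolic ribosomal proteins are at 8.39% to 10.0% in all 4 libraries.

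Cytosolic ribosomal protein messages were among the most labelled in both genotypes. Of 75 genes, 67 were at 5% or more in WT and 67 in Mettl3-KO, and 38 were among the 875 highest of both. The list medians were 10.0% and 8.90% in WT and 8.57% and 8.39% in Mettl3-KO. The share was higher in Mettl3-KO for 3 genes and lower for 7, against 4.41% and 0.994% of all genes (median log2 difference of -0.24). The lower calls depended on the fit: 26 with the library share taken out and 33 and 13 without WT replicate 2 or 1, but 2 in DESeq2, 2 with the replicate block, 1 over all 14 libraries, 0 in limma, and 2 and 1 without Mettl3-KO replicate 1 or 2. Rpl13a was at 8.95% and 10.1% in WT and at 4.06% and 4.09% in Mettl3-KO (-1.22, SE 0.19, edgeR adjusted p = 3.06e-05), and Rps3 at 10.6% and 10.2% and at 7.21% and 6.14%. Rps27l, a p53-responsive relative of Rps27, was higher, with 8.30% and 4.33% in WT and 17.9% and 15.97% in Mettl3-KO. At 0 h the list had medians of 25.4% (WT) and 16.2% (Mettl3-KO), below those of all genes, and the median gene kept 41.4% and 52.8% of its 0 h share.

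Translation factors and chaperones were split. Of 37 translation factors 3 were higher and 5 lower, against 4.41% and 0.994% of all genes (median log2 difference of -0.14). DESeq2 called 2 and 2, the fit over all 14 libraries 1 and 1, limma 0 and 0, and the fit with the library share taken out 1 and 10. Without Mettl3-KO replicate 1 or 2 there were 0 and 1, and 0 and 0. Eef1b2, a subunit of the exchange factor of elongation factor 1, was at 15.8% and 15.03% in WT and at 9.92% and 10.1% in Mettl3-KO, and Eif4ebp1, the mTOR-regulated repressor of cap-dependent translation, at 2.32% and 0.4% and at 5.41% and 5.65%. Of 28 chaperones 3 were higher and 5 lower (median 0.12, and -0.14 with the library share taken out). Cct4, of the chaperonin that folds actin and tubulin, was at 10.1% and 10.5% in WT and at 4.13% and 3.88% in Mettl3-KO, and Hspa5, the HSP70 of the endoplasmic reticulum, at 2.18% and 3.55% and at 7.13% and 6.88%. These 4 genes were named for their values in the same libraries, and in each both libraries of a genotype lay on the same side. Over all genes both Mettl3-KO libraries were above both WT libraries in 30.6% and below them in 15.1%. Of 31 proteasome subunits 3 were higher and 1 lower (median 0.36), against 4.41% and 0.994% of all genes. The higher calls fell to 0 in DESeq2 and limma, with the library share taken out, with the replicate block, over all 14 libraries and without either Mettl3-KO replicate.

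**Figure D4:**
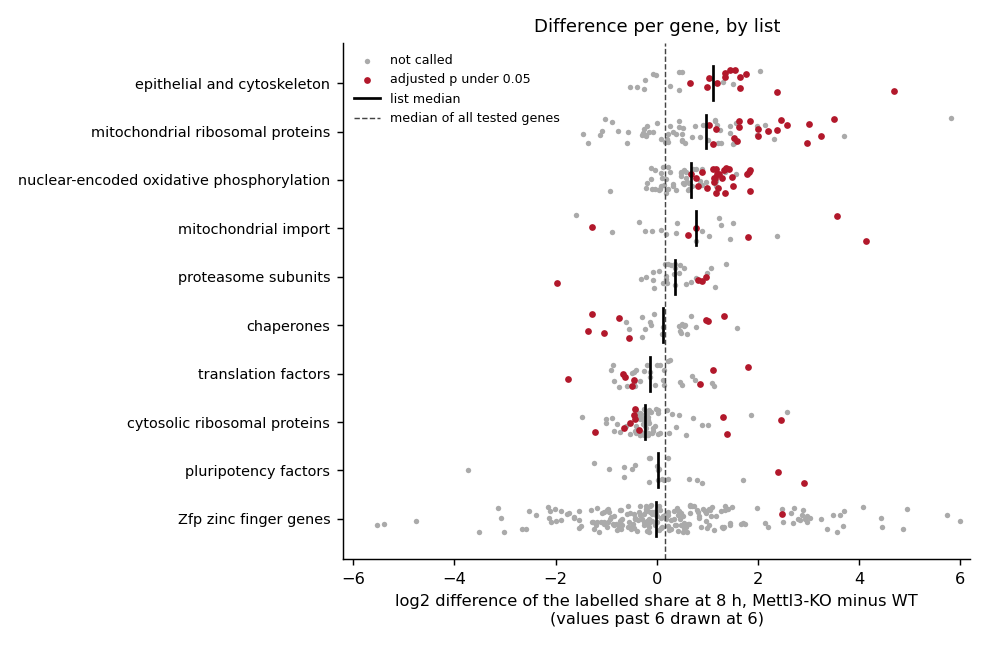
Each point is a gene of the list named at the left, with its log2 difference of the labelled share at 8 h, Mettl3-KO minus WT (x axis), in red where the edgeR adjusted p is under 0.05 and jittered up and down only to separate points. Black bars are list medians and the dashed line is the median of all tested genes, 0.17. The bars of the cytoskeleton list and the 3 mitochondrial lists lie at 0.674 to 1.104 and that of cytosolic ribosomal proteins at -0.24.

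Pluripotency factors had about the level of all genes at 8 h. Of 24 genes edgeR called 2 higher in Mettl3-KO, Utf1 and Klf4, and 0 lower, against 4.41% and 0.994% of all genes. There were 4 and 3 at an unadjusted p under 0.05, 2 and 0 in DESeq2, and none in limma. The list medians were 2.18% and 1.65% in WT and 2.05% and 2.03% in Mettl3-KO. Those over all genes were 2.44%, 1.73%, 2.47% and 2.49%. In Mettl3-KO, Utf1 and Klf4 lay above the 95th percentile of all genes in each library (10.6% and 10.5%). Sox2 was at 1.56% and 0.964% in WT and at 0.933% and 0.957% in Mettl3-KO, and Nanog at 1.87% and 0.942% and at 1.67% and 1.32%. Pou5f1, which encodes OCT4, was at 6.33% and 3.22% in WT and at 7.204% and 9.86% in Mettl3-KO, on 1053 and 1901 total counts. None of these 3 passed the test, and the same held for Mycn (2.10% and 1.39%, and 1.16% and 1.43%) and Myc (3.65% and 0%, and 0% and 2.44%). Of 19 mRNAs described as m6A-methylated in embryonic stem cells edgeR called 1 higher, Klf4, and 0 lower, where 4.41% of all genes were higher, with a median log2 difference of -0.17 (2 and 1 at an unadjusted p under 0.05, 1 and 0 in DESeq2, none in limma). Of 20 writers, readers and erasers of m6A 1 was higher, so both counts are near the background. It was Rbm15, which guides the writer complex to its sites, at 2.08% and 0.224% in WT and at 8.02% and 6.96% in Mettl3-KO (2.44, SE 0.51, edgeR adjusted p = 0.00187).

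Zinc finger regulators held less label than the median gene. Zfp zinc finger genes are a large family of mostly repressive transcription factors. Over 210 genes their median shares were 1.80% and 0.866% in WT and 1.43% and 1.68% in Mettl3-KO. In edgeR 1 of them was called higher in Mettl3-KO, Zfp691, and 0 lower, against 4.41% and 0.994% of all genes. The 10th percentile of the share over all 8750 genes was 0.573% in WT, and the 5th was 0.626% in Mettl3-KO. A share under 0.5% was thus found for under 10% of genes in WT and under 5% in Mettl3-KO. Under 0.5% there were 789 genes in WT and 319 in Mettl3-KO, with 115 in both, 14.6% and 36.1% of the sets. Among those, Zfp36l2, a zinc finger protein that triggers decay of AU-rich mRNAs, was at 37.5% in WT and at 20.6% and 27.6% in Mettl3-KO at 0 h. It was at 2.84% and 4.12% at 3 h, and at 0.568% and 0% in WT and 0% and 0.254% in Mettl3-KO at 8 h. Rptor, a subunit of mTORC1, was at 0.291% and 0% in WT and at 0.183% and 0.173% in Mettl3-KO, after 31.3% in WT and 17.5% and 25.3% in Mettl3-KO at 0 h. Both had lost nearly all label in every library. Counts of this kind rest on few conversions, and which of the 115 genes is lower than another was not detectable at this depth.

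A few abundant RNAs held much of the remaining label. The 10 genes with the most conversion counts held 16.7% and 14.1% of them in the WT libraries and 11.3% and 11.8% in the Mettl3-KO libraries. First was mt-Rnr2, the large ribosomal RNA of mitochondria, with 6.15% and 3.61% of the conversion counts in WT and 2.61% and 2.72% in Mettl3-KO. Of the total counts it held more, 6.34% and 4.44% in WT and 4.44% and 4.70% in Mettl3-KO. Its labelled share was 4.38% and 3.02% in WT and 2.87% and 2.88% in Mettl3-KO, and had been 7.27% in WT at 0 h. Actb, which encodes beta-actin, held 1.51% and 1.30% of the conversion counts in WT and 2.04% and 2.07% in Mettl3-KO. Cytosolic ribosomal proteins together held 15.96% and 17.2% of the conversion counts in WT and 11.8% and 11.1% in Mettl3-KO, and oxidative phosphorylation 2.55% and 2.62% in WT and 4.46% and 4.08% in Mettl3-KO. Of the total counts, cytosolic ribosomal proteins held 6.99% and 7.06% in WT and 6.88% and 6.53% in Mettl3-KO. Oxidative phosphorylation held 1.60% and 1.57% of them in WT and 2.19% and 1.97% in Mettl3-KO. The 97 genes at 20% or more in either genotype held 3.08% and 3.14% of the conversion counts in WT and 3.66% and 3.81% in Mettl3-KO. Without them the library share still differed by 0.777 points between the genotypes.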

How the data were processed

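The authors deposited 2 tables of counts per gene, total counts and counts of T>C conversions, and a table of half-lives, used only for its coverage. Per the submitters' processing notes, the genome build was mm10 and the tools were Subread 1.5.0 with featureCounts, Trim Galore 0.4.0 and edgeR 3.32.1. Not given in the sources used here are the aligner, how conversions were called, and whether they were counted per read or per base. The 2 tables differ in order at 240 entries and were joined by gene symbol. An entry without a name held 0.007% to 0.008% of the 8 h total counts and was left out. Of the members, 57 share identical counts with another (19 signals), and none had more conversions than counts at 8 h.

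Members and gene lists were chosen with earlier results of these data known. Labelled share is conversion over total count, with replicates summed for thresholds. Shares were tested with edgeR 4.0.16 (quasi-likelihood, R 4.3.3, no replicate block, 4 libraries), conversion counts with the log of the gene's total count as offset, adjusted over all 8750 genes at 0.05. The share of 0 h label kept was the interaction in a fit over 14 libraries, and total RNA was tested with TMM. Alternatives were DESeq2 1.42.0, limma 3.58.1 (0.5 added to conversions and 1 to totals), other offsets, minimums, thresholds, a replicate block and each library left out. Data were simulated for the 8 h share on 8750 genes with 50 changed per size. The test recovered 10%, 26%, 58% and 76% of genes changed 2-, 4-, 8- and 16-fold, with 1 false call among 8550 unchanged genes. The changed genes were drawn only from genes above a minimum of conversion counts. Recovery among genes with few conversions is thus not known.

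Named genes were the 10 highest of each high set that met its condition in each library, the 10 best covered under 0.5% in both, the 8 smallest p per direction, up to 4 per list by p and a few pluripotency genes; others were chosen after their values were seen. Shares of single libraries at 0 h, 1 h and 3 h for the high sets have Wilson 95% intervals with a median half-width of 3.95 points and a maximum of 17.6, for counting error only. Positions come from RefSeq on GRCm38.p6 (mm10), found for 8579 members by symbol.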

Additional observations from a re-analysis of the deposited data

Results flagged for a closer look

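For 25 of the genes named above, the change of the share from 0 h to 8 h differed between the genotypes by the interaction in edgeR (adjusted p under 0.05). The values that follow are log2 differences, Mettl3-KO minus WT, and WT has 1 library at 0 h. Of the 25 genes 11 were past the threshold in DESeq2, 11 with the TMM-scaled total and 20 with the replicate block, and 21 and 19 without Mettl3-KO replicate 1 or 2 at 8 h. All 25 kept their direction in these fits. Most of these genes were named for their 8 h shares, which also enter these values.

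Among RNAs high in Mettl3-KO only, the share of label kept was higher in Mettl3-KO by 5.67 for Fuca1, 3.85 for Ppm1m, 5.09 for Ndc80, 3.51 for Vamp3, 5.10 for Nme6, 3.95 for Net1, 3.65 for Flot1, 4.48 for Tstd2, 3.87 for Pdpk1 and 4.39 for Aoah. Outside that set it was higher by 2.30 for Elob, 2.54 for Utf1, 3.23 for Rps4l, 2.76 for Klf4, 2.94 for Apoe and 2.22 for Ncl.

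Among RNAs high in WT only, the difference was -3.88 for Nusap1, -3.56 for Gm56450, -3.81 for Dhx35, -1.98 for Pcolce, -3.42 for Sde2, -3.69 for Wdr76, -2.68 for Txnl1 and -2.37 for Gm6542. It was -2.38 for Trip6.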

How the results depend on the processing

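WT replicate 2 at 8 h is the shallowest of the 4 libraries, and 1688 genes in it had no conversion count. The part of depth in the calls was not tested. The deviations of same-numbered libraries had a correlation of 0.008 across genes. With 2 libraries per genotype, this cannot tell whether the replicate numbers pair the libraries. With the replicate block, the higher and lower shares at 8 h numbered 337 and 58, total RNA 1392 and 1389, and the share of 0 h label kept 168 and 5.

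The median log2 difference of the share changed direction with the library share taken out (-0.062) and ranged from 0.11 to 0.67 without each library in turn, with 0.67 without WT replicate 1. Higher and lower shares numbered 386 and 87 as reported, 328 and 192 with the library share taken out, 699 and 197 with the TMM-scaled total, 313 and 66 in DESeq2, 6 and 9 in limma, 533 and 162 over all 14 libraries, and 259 and 43 with 1000 or more total counts, where fewer genes were tested. Without each library in turn they ranged from 93 to 1182 and from 24 to 406. The share of 0 h label kept gave 402 and 18 as reported, 1193 and 46 without the 2 shallow libraries, 26 and 2 in DESeq2, 103 and 6 with the TMM-scaled total, and 117 to 1345 and 4 to 94 without each library in turn. Total RNA gave 377 to 2795 and 416 to 2783. With the TMM-scaled total, Gm10036 (1.25), Eef1a1 (0.11) and Hsp90ab1 (0.28) changed direction. That setting tests labelled RNA per library, while the main test reads the share.

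The sets high in both, in Mettl3-KO only and in WT only held 35, 42 and 24 genes with 50 or more total counts, 10, 4 and 6 with 1000 or more, 143, 42 and 24 at thresholds of 10% and 2%, 5, 8 and 5 at 40% and 10%, and 16, 12 and 9 in each library. Without each library in turn they ranged from 8 to 25, 17 to 24 and 8 to 16. Of 85 named genes past the threshold, limma left 13, DESeq2 75 and the fits without Mettl3-KO replicate 1 or 2 left 53 and 49.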

Other observations

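Tubulins, the subunits of microtubules, are known to tune the decay of their own mRNAs to the amount of free protein, and their messages were looked at as a family after their values were seen. Of 10 alpha- and beta-tubulin genes with enough counts, the share at 8 h was higher in Mettl3-KO for 8 and lower for none in edgeR, where 4.41% of all genes were higher. The median shares were 3.70% in WT and 9.79% in Mettl3-KO. In 9 of the 10 genes both Mettl3-KO libraries were above both WT libraries, as for 30.6% of all genes. Tuba4a was at 1.91% and 1.58% in WT and at 11.1% and 10.9% in Mettl3-KO, and Tuba1a at 4.27% and 5.70% and at 12.4% and 13.9%. Tubb6 was at 0.568% and 0% in WT and at 9.83% and 8.82% in Mettl3-KO. The exception was Tuba1b, with 5.57% and 8.03% in WT and 7.98% and 8.22% in Mettl3-KO. Total RNA was higher in Mettl3-KO for 9 of the 10, with Tubb2a as the exception, and lower for none. Over all genes it was higher for 15.5% and lower for 16.8%. Tubulin genes are similar in sequence and may share reads, so the 10 values are not independent.

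Some genes had replicates far apart at 8 h. Gm8935 was at 0.541% and 55.3% in WT and at 74.3% and 78.4% in Mettl3-KO. Otx2, on 236 total counts in WT, was at 0.763% and 10.5% in WT and at 0% and 1.88% in Mettl3-KO.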
